A study of Mus musculus with 24 samples.

Results

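The genes described here are 30 mouse genes for 2 families of nuclear RNA-binding proteins, 10 SR protein genes (the Srsf genes) and 20 hnRNP genes (the Hnrnp genes). They were given as a list of gene symbols, and each symbol matched 1 of the 56923 gene identifiers in the count files. In 21 libraries, 28 of the 30 had enough reads to be tested (at least 10 in all, and a read in at least 3 libraries). Srsf12 had 20 reads in 1 library and Hnrnpa0 5 reads in 2 libraries, and neither was tested. A member that has reads at 1 age only passes this filter through that age.

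RNA was measured in nuclei of heart muscle cells, cardiomyocytes (CMs), by QuantSeq, which sequences transcript 3′ ends. The nuclei were sorted by PCM1, a protein of the CM nuclear surface, from hearts at postnatal day 1, 7 and 14 (P1, P7 and P14). A P1 library pooled 15 hearts, a P7 library 6 and a P14 library 2, so a library is not 1 animal. The study compared ages within a genotype and genotypes within an age, to describe postnatal CM maturation and the part of caspase-2 in it.

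All mice carried Casp2 fl/fl, that is both Casp2 alleles flanked by loxP sites, and the study bred them on C57BL/6N. Control mice were XMLC2- and so lacked Cre recombinase. Casp2-depleted mice were XMLC2+, with Cre driven by a myosin light chain promoter that is active in the heart. XMLC2+ mice without floxed Casp2 were not analysed here, so Cre itself and the loss of Casp2 cannot be told apart. Of 24 libraries 3 were left out, which the study had set aside for low quality. Those that entered the fit were 3 P1 control, 4 P1 Casp2-depleted, 4 P7 control, 4 P7 Casp2-depleted, 3 P14 control and 3 P14 Casp2-depleted libraries. Replicate numbers below are those of the labels. The deposited file names call the same number a batch, without saying what a batch is. The sample titles do not say whether pools of a group came from separate litters or days, and p-values measure the spread between these pools.

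SR proteins and hnRNPs bind pre-mRNA and steer splicing. SR proteins carry a domain rich in arginine and serine, bind exonic enhancers and recruit the spliceosome, while many hnRNPs bind silencers and oppose exon inclusion, and several of both kinds also act in mRNA export, stability and polyadenylation. In the heart, the change from fetal to adult splice forms of sarcomere and calcium-handling genes after birth depends on such proteins, Srsf1 among them. Many of these genes also limit their own output through exons that send the transcript to nonsense-mediated decay. Counts of 3′ reads give the level of a gene and do not show which splice form was made.

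The 21 libraries held 891817 to 2924097 reads on genes. All 10 CM markers checked had reads in every group, and their summed level was 61620 to 86042 CPM (reads scaled to a common total of reads on genes) in P7 control and 14508 to 48619 CPM in P14 control libraries. Casp2 had 9 reads in P7 control and 8 in P7 Casp2-depleted libraries and 0 in the other 4 groups, so its level does not check the genotype labels. Of the uniquely placed reads, 34.3 to 76.1% lay on no gene, and this share differed with age. The 6 P14 libraries had 63.7 to 76.1% and the 8 P7 libraries 34.3 to 64.3%. In bulk samples, fewer cells of a type and less RNA per cell cannot be told apart.

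The reads of the 30 genes came to 1050 to 1581 CPM in P7 control libraries (median 1133) and to 963 to 1390 CPM in P7 Casp2-depleted libraries (median 1294). At P14 they came to 119, 289 and 824 CPM in control libraries, and to 366, 376 and 547 CPM in Casp2-depleted libraries. P7 and P14 libraries of the fit did not overlap in this sum within a genotype, while the left-out P14 control replicate 3 had 1002 CPM and the left-out P14 Casp2-depleted replicate 1 had 1030 CPM, the latter within the P7 range. P1 libraries ranged more widely, with 665, 973 and 1125 CPM in control libraries and 556 to 1626 CPM (median 1104) in Casp2-depleted libraries, and overlapped those of P7. Without Hnrnpm, the most-read member, the sum was 808 to 1346 CPM in P7 control against 119 to 676 CPM in P14 control libraries, and 552 to 1142 against 328 to 458 CPM in Casp2-depleted libraries.

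Fewer of the genes were detected at P14 as well. A P7 library had reads on 22 to 28 of the 30 genes and a P14 library on 4 to 13. Over all genes the number detected was lower too, at 14006 to 17770 in P7 and 7628 to 13651 in P14 libraries. Reads on genes came to 1452114 to 2924097 at P7 and 891817 to 1278961 at P14. At P14, 13 members had no read in any control library and 14 had none in any Casp2-depleted library, against 0 and 2 at P7. Both P14 groups lacked reads on 8 members, namely Srsf1, Srsf4, Srsf7, Srsf12, Hnrnpa0, Hnrnpa3, Hnrnpab and Hnrnpdl. Reads were present in every one of the 6 groups for 10 members, namely Srsf5, Srsf6, Srsf10, Hnrnpa2b1, Hnrnpf, Hnrnph3, Hnrnpu, Hnrnpll, Hnrnpm and Hnrnpr.

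**Figure D1:**
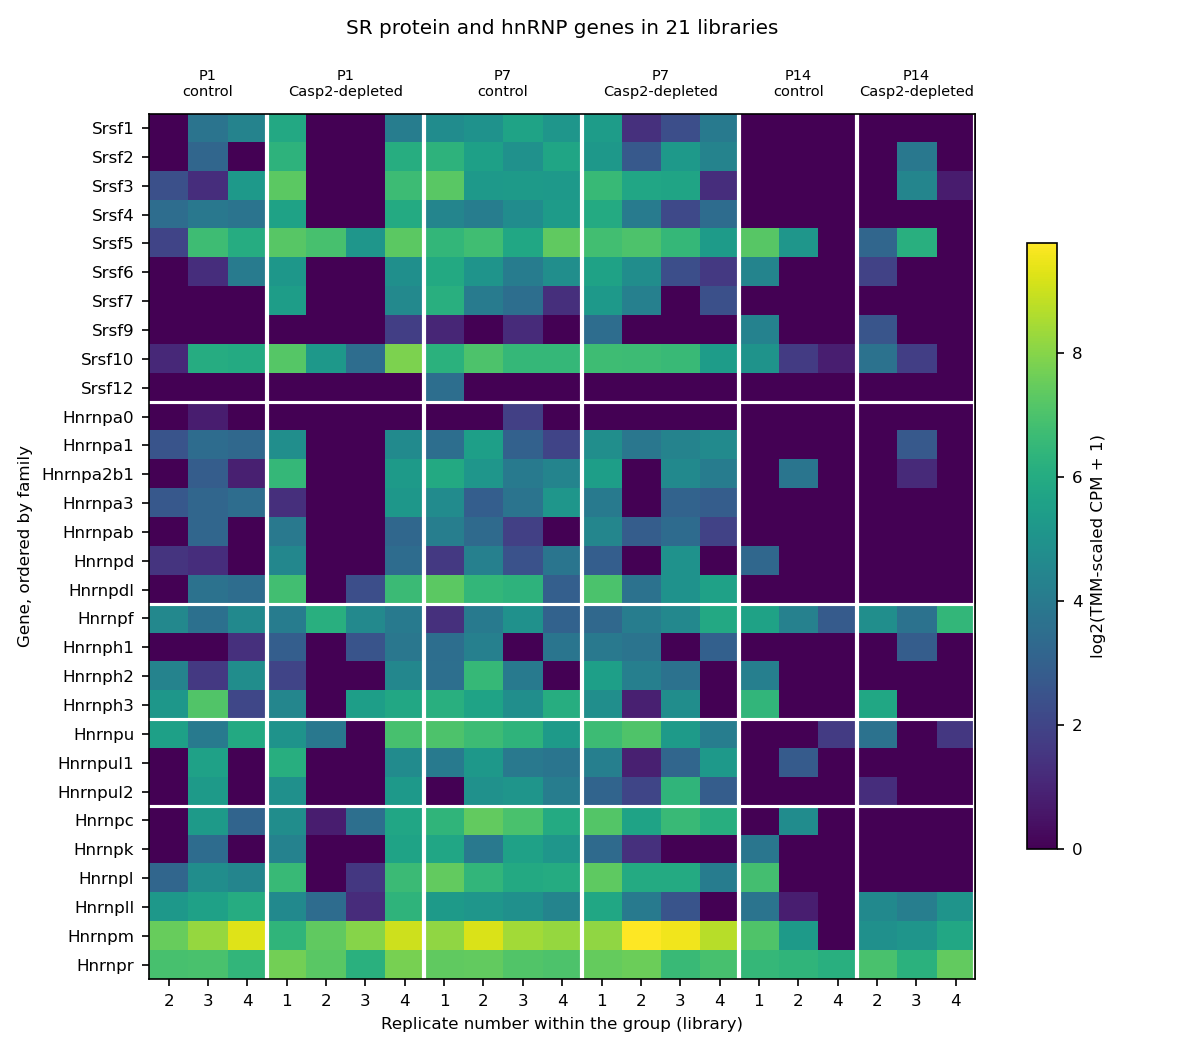
Heat map of the 30 genes (rows, ordered by family and divided by white lines) in 21 libraries (columns, by group, with the replicate number below), coloured by log2 of TMM-scaled CPM + 1. P7 columns are filled for 22 to 28 of the 30 genes and P14 columns for 4 to 13, and the rows of Hnrnpf and Hnrnpr have reads in all 21 columns.

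The same counts moved with the share of reads on no gene among P1 libraries. Among 7 P1 libraries, the 3 with 68.2 to 73.9% of reads on no gene had reads on 8 to 15 members and 556 to 665 CPM in sum, and the other 4, with 36.8 to 61.2%, on 20 to 28 members and 973 to 1626 CPM. Of 2 libraries with like shares but different genotypes, P7 Casp2-depleted replicate 4, at 64.3%, had reads on 22 members and P14 control replicate 1, at 63.7%, on 13. P1 Casp2-depleted replicates 2 and 3, at 68.2 and 70.6%, had reads on 8 and 11. P14 Casp2-depleted replicate 2, at 72.2%, had reads on 11. Within P14 the counts did not follow the share closely. The lowest share in the fit went with the most members, 13. Control replicate 4, at 72.5%, had reads on 4, and Casp2-depleted replicate 3, at 76.1%, on 11. P14 control replicate 3, left out of the fit, had a share of 16.1% and reads on 5 members. P14 Casp2-depleted replicate 1, also left out, had a share of 64.1% and reads on 7 members. P1 libraries overlapped both other ages in this share. P7 and P14 libraries of the fit overlapped only between 63.7 and 64.3%, so in that comparison age and share can hardly be told apart.

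**Figure D2:**
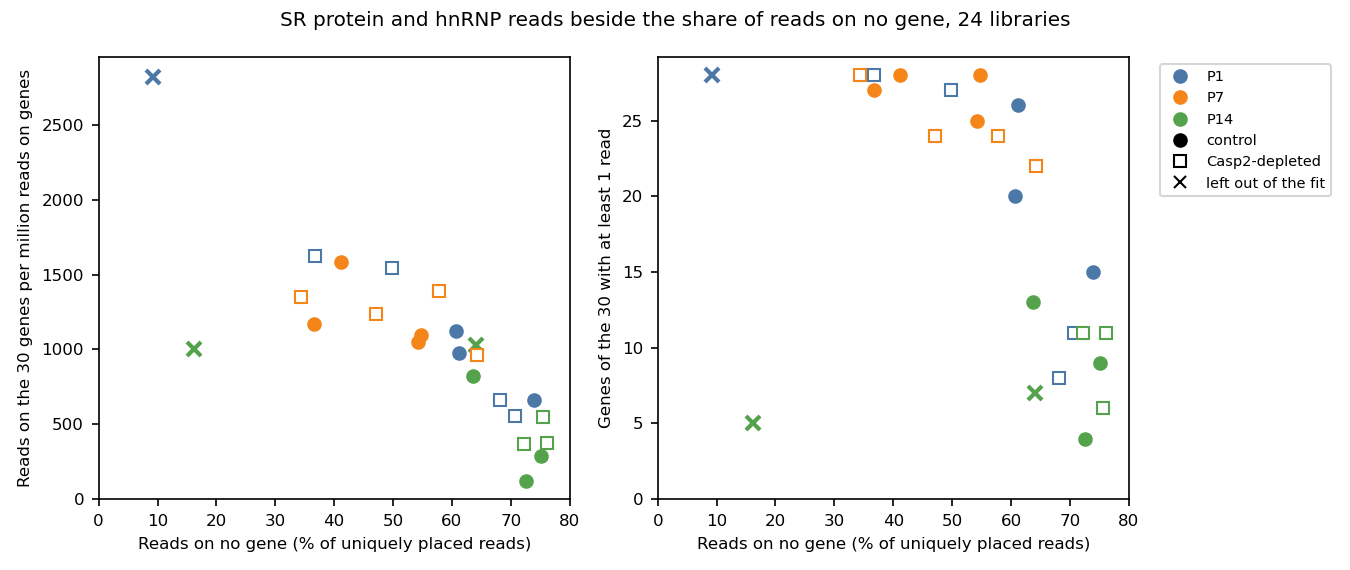
Share of uniquely placed reads that lie on no gene (x axis, percent) against the summed CPM of the 30 genes (left) and the number of the 30 genes with a read (right), 1 point per library, coloured by age, with crosses for the 3 libraries left out of the fit. The 6 P14 libraries of the fit lie at 63.7 to 76.1% with 4 to 13 genes detected, and the 3 P1 libraries nearest to them at 68.2 to 73.9% have 8 to 15.

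The promoters of 3 members that fell and of Hnrnpr, which was read in all libraries, are shown so that their composition can be seen beside the levels. RefSeq windows on GRCm38.p6, from 250 bases before each start site to 50 after it, were found for 28 of the 30 genes, in 39 windows. They were richer in CpG than promoters in general, with a median of 32 CpG per window against 7 over all 32851 windows, and a GC content of 68.7% against 52.7%. The GC box GGGCGG, searched on both strands, was in 82.1% of the members' windows and 35.7% of all windows. An ETS core CCGGAAG was in 20.5% against 8.86%, and a TATA box TATAAA in 10.3% against 13.6%. The 250 bases before the start site follow for Srsf3 (chr17:29032410-29032659, + strand), Hnrnpdl (chr5:100039223-100039472, - strand), Hnrnpm (chr17:33685459-33685708, - strand) and Hnrnpr (chr4:136310692-136310941, + strand, the first of 2 windows), written 5′ to 3′ along the gene with matches to the 3 motifs in capitals.
Srsf3: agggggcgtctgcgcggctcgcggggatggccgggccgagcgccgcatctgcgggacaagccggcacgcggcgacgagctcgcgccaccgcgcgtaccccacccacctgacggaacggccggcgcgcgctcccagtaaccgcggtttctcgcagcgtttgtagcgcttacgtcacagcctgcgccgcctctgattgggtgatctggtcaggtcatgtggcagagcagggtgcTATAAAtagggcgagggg
Hnrnpdl: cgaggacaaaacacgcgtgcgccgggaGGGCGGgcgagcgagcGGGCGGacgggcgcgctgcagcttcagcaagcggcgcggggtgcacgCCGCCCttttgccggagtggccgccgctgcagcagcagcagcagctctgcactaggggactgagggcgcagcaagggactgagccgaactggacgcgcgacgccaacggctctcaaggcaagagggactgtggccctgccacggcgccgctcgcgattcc
Hnrnpm: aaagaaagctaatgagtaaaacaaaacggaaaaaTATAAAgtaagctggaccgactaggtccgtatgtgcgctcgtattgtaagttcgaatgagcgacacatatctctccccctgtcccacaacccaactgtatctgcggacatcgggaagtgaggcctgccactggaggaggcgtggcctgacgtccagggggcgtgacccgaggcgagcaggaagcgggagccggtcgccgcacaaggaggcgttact
Hnrnpr: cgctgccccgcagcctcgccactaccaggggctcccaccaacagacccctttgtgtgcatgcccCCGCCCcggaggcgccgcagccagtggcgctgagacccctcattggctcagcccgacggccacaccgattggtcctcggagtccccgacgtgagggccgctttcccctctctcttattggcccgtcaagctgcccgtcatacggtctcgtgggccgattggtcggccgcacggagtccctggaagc

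Srsf3 held a TATA box whose first base lies 18 bases before the start site (position -18), and Hnrnpm held the same letters at -216. Hnrnpdl held 3 GC boxes, at -223, -207 and -160, and Hnrnpr 1, at -186. A match says that the letters are in the window and not that a factor binds there.

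From P7 to P14 in control mice, 4 of the 28 members tested fell and none rose, and in Casp2-depleted mice 5 fell and none rose. A gene was called when edgeR's quasi-likelihood test gave a Benjamini-Hochberg adjusted p below 0.05, over all 20368 genes tested, with an absolute log2 fold change above 1. In controls 1.87% of all genes were called lower, and in Casp2-depleted mice 2.82%. Srsf3, Hnrnpdl, Hnrnpu and Hnrnpm were called in controls, and Srsf10, Hnrnpdl, Hnrnpc, Hnrnpl and Hnrnpm in Casp2-depleted mice. The log2 fold change was below 0 for 26 of 28 members in controls and for 25 of 28 in Casp2-depleted mice, where it was below 0 for 62.2% and 60.1% of all genes. Its median over the members was -3.15 in controls, against -0.75 over all genes, and -4.74 against -0.61 in Casp2-depleted mice. The 4 P7 and 3 P14 libraries did not overlap for 17 members in controls, all lower at P14, as for 13.5% of all genes, and for 12 members in Casp2-depleted mice, as for 10.9% of all genes. An unadjusted p below 0.05 with a lower level was reached by 15 members in controls (12.9% of all genes) and 16 in Casp2-depleted mice (13.8%).

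The calls changed when the share of reads on no gene entered the fit, and when single libraries were left out or added. Age and this share can hardly be told apart between P7 and P14, so a call lost with it does not separate them. With that share as a covariate in the fit, no member was called in controls, where 7 had an unadjusted p below 0.05 and the members' median was -1.72, and Hnrnpc alone was called in Casp2-depleted mice, with a median of -2.24. With all 24 libraries, Hnrnpdl alone was called in either genotype. With the replicate number as a block, 3 members were called in controls, without Hnrnpm (adjusted p = 0.0979), and 4 in Casp2-depleted mice, without Srsf10 (adjusted p = 0.0902). Without P7 control replicate 1, 2 members were called in controls, and without P7 Casp2-depleted replicate 1, P14 Casp2-depleted replicate 3 or P14 Casp2-depleted replicate 4, 3 were called in Casp2-depleted mice.

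**Figure D3:**
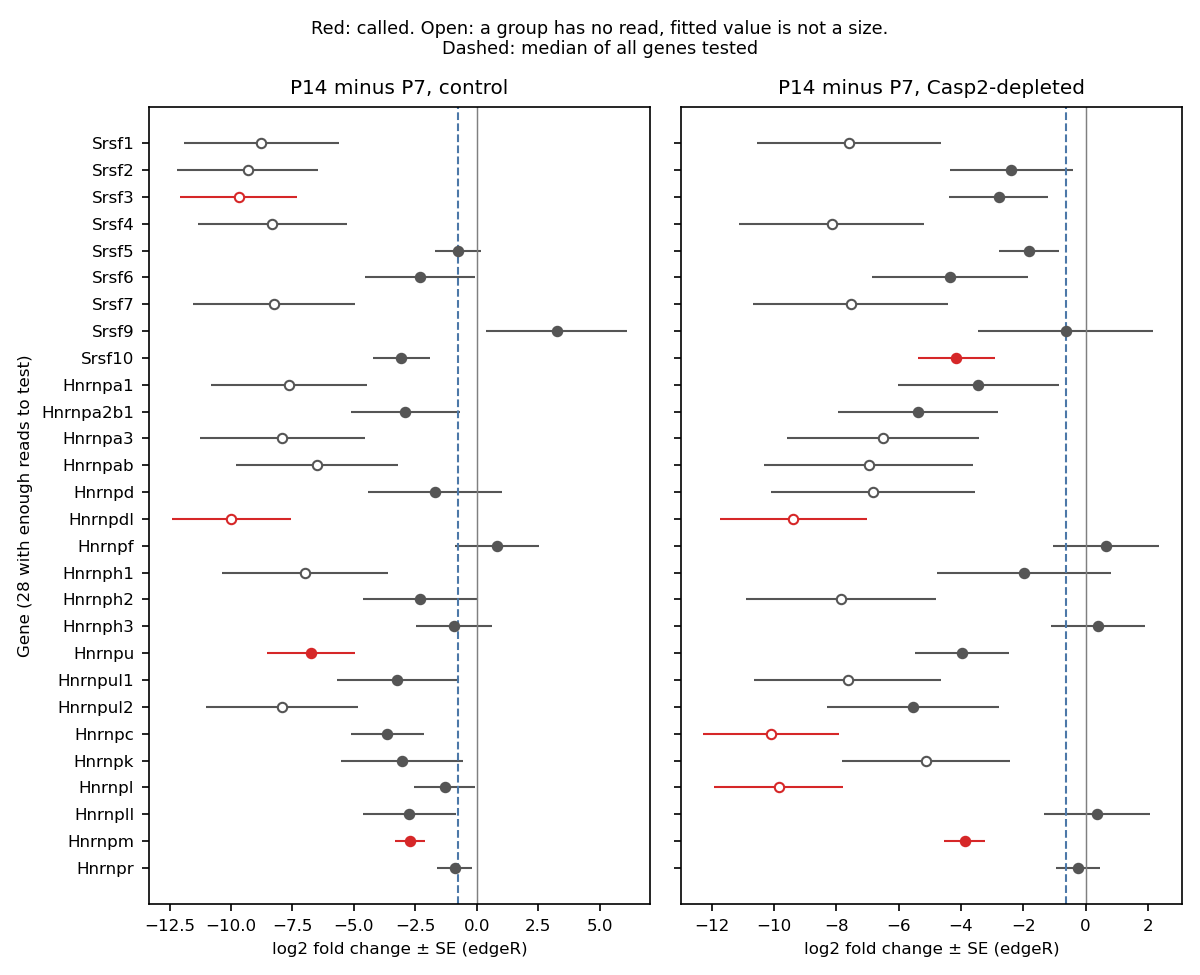
Log2 fold change ± SE from P7 to P14 (x axis) of the 28 members tested (y axis), in control mice (left) and Casp2-depleted mice (right), red where called, open where 1 group has no read, so that the fitted value is no measure of size. Members called are Srsf3, Hnrnpdl, Hnrnpu and Hnrnpm on the left and Srsf10, Hnrnpdl, Hnrnpc, Hnrnpl and Hnrnpm on the right, and the dashed lines give the medians of all 20368 genes, -0.75 and -0.61.

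Levels per library of single genes are given in CPM scaled by TMM factors, and sums over genes in CPM without them. Left-out libraries have no TMM factor, so the CPM of single genes in them are unscaled. Every fold given below as at least a value covers counting error only. It pools the reads of a group and leaves out the spread between pools. The summed reads of the 10 SR protein genes were 240 to 488 CPM in P7 control and 131 to 402 CPM in P7 Casp2-depleted libraries, and 1.12, 47.7 and 245 CPM in P14 control and 1.024, 34.3 and 158 CPM in P14 Casp2-depleted libraries. The highest P14 library of each genotype overlapped P7 in these sums. Scaled by TMM factors they did not overlap, with 321 to 583 CPM at P7 and at most 221 CPM at P14 in controls, and 134 to 549 CPM and at most 107.8 CPM in Casp2-depleted mice.

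Srsf3 encodes the smallest SR protein, which acts in splicing, polyadenylation and mRNA export (11.0 kb on chromosome 17, at 29251321 to 29262347 of GRCm39, + strand). It was at 153, 38.2, 39.3 and 38.2 CPM in P7 control replicates 1 to 4 and at 0 in all 3 P14 control libraries. The fall from 457 reads to 0 was at least 100.5-fold, taking 3 reads over the group as the limit of a count of 0, which covers counting error only (edgeR quasi-likelihood, Benjamini-Hochberg adjusted p = 0.00579), and the call was lost without P7 control replicate 1. The left-out P14 control replicate 3 held 286 Srsf3 reads, or 269 CPM, and with all 24 libraries the log2 fold change was 0.031, with no fall (adjusted p = 1). In Casp2-depleted libraries it was at 94.8, 53.9, 50.9 and 1.41 CPM at P7 and at 0, 20.8 and 0.655 CPM at P14, so the ages did overlap there (log2 fold change -2.80, SE 1.58, adjusted p = 0.332). At P1 it was at 4.21, 1.41 and 38.1 CPM in control and at 156, 0, 0 and 103 CPM in Casp2-depleted libraries. All of Srsf3 lies within Trp53cor1 on the opposite strand. The sources used here do not state whether counting used strand, and the reads of overlapping genes cannot then be told apart.

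Srsf10 (19.5 kb on chromosome 4, at 135583043 to 135602548, + strand) encodes an SR protein that represses splicing when dephosphorylated. Its level was 105, 103, 97.0 and 40.8 CPM in P7 and 11.99, 2.52 and 0 CPM in P14 Casp2-depleted libraries, with no overlap between the ages (log2 fold change -4.15, SE 1.25, edgeR quasi-likelihood adjusted p = 0.0359). This call was lost in 5 of the 7 fits that each left out 1 library, namely P7 Casp2-depleted replicate 1, 2 or 3 or P14 Casp2-depleted replicate 3 or 4. Controls went from 73.7, 130, 90.3 and 90.7 CPM at P7 to 31.1, 2.25 and 0.759 CPM at P14, again with no overlap but without a call (-3.07, SE 1.18, adjusted p = 0.200). P1 libraries ranged from 1.20 to 65.5 CPM in controls and from 10.2 to 231 CPM in Casp2-depleted mice.

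Srsf2 encodes the SR protein SC35 (3.796 kb on chromosome 11, at 116740723 to 116744518, - strand). P7 control libraries had 78.9, 46.1, 30.1 and 53.2 CPM and all 3 P14 control libraries had 0, from 332 reads to 0, at least 73.0-fold lower, with an adjusted p of 0.0600 by edgeR's quasi-likelihood test, which missed the threshold. P7 Casp2-depleted libraries had 36.0, 5.55, 37.1 and 19.7 CPM and those at P14 0, 13.9 and 0 CPM, which overlapped. At P1, 4 of the 7 libraries of the fit had no Srsf2 read in either genotype, and the other 3 had 8.45, 78.9 and 66.5 CPM. The gene is overlapped over its whole length by Mettl23 and Mfsd11 on the opposite strand.

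Srsf5, another general SR protein gene and the one with the highest level per kb of gene among them (11.2 kb on chromosome 12, at 80986436 to 80997630, + strand), did not separate by age. It was at 87.3, 109, 56.3 and 164 CPM in P7 control and at 151, 34.5 and 0 CPM in P14 control libraries (log2 fold change -0.75, SE 0.93, adjusted p = 0.730). Casp2-depleted libraries had 112, 132, 89.4 and 40.1 CPM at P7 and 8.46, 70.6 and 0 CPM at P14 (-1.82, SE 0.97, adjusted p = 0.318). One P14 control library was therefore as high as the upper P7 libraries and another had no read.

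The other SR protein genes were lower in reads. Srsf1, Srsf4 and Srsf7, which encode general splicing activators, had reads in all 4 P7 control libraries and none in any P14 library of either genotype, and none of the 3 was called. Srsf9 had 4 reads in P7 control and 27 in P14 control libraries, all 27 in replicate 1. Srsf6 had 222 reads in P7 control and 29 in P14 control libraries, the 29 also in replicate 1.

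Of the hnRNP genes, Hnrnpm was the most-read member, at a mean of 298 CPM over the 21 libraries, and also the highest per kb of gene at 7.32 CPM per kb. It encodes a protein that binds GU-rich RNA and was measured over 40.6 kb (chromosome 17, at 33865207 to 33905834, - strand). P7 control libraries had 281, 593, 338 and 297 CPM and P14 control libraries 134, 39.0 and 0 CPM, with no overlap (log2 fold change -2.71, SE 0.62, edgeR quasi-likelihood adjusted p = 0.00198). P7 Casp2-depleted libraries had 283, 874, 751 and 420 CPM and P14 ones 28.9, 32.8 and 57.0 CPM, again with no overlap (-3.88, SE 0.66, adjusted p = 1.36e-06). Hnrnpm was also the one member that fell from P1 to P14 in both genotypes. It went from 179, 299 and 622 CPM at P1 in controls (-2.67, SE 0.64, adjusted p = 0.0145; 0.314% of all genes were called lower) and from 84.0, 166, 254 and 515 CPM in Casp2-depleted mice (-2.68, SE 0.62, adjusted p = 0.00221; 1.92% of all genes). The call from P7 to P14 in controls was lost without P14 control replicate 4, the library at 0, and that from P1 to P14 in controls without P1 control replicate 4, P14 control replicate 2 or P14 control replicate 4. In Casp2-depleted mice the call from P1 to P14 was lost without P1 Casp2-depleted replicate 4 or P14 Casp2-depleted replicate 3. The left-out P14 Casp2-depleted replicate 1 held 348 Hnrnpm reads, or 241 CPM.

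Hnrnpdl, a relative of Hnrnpd whose product shuttles between nucleus and cytoplasm (8.48 kb on chromosome 5, at 100179317 to 100187792, - strand), had no read in any of the 6 P14 libraries. P7 libraries had 158, 87.9, 78.5 and 6.75 CPM in controls and 128, 11.9, 30.3 and 47.8 CPM in Casp2-depleted mice. From 553 and 400 reads it was at least 121.6-fold and at least 96.2-fold lower at P14 (edgeR quasi-likelihood adjusted p = 0.00462 and 0.00486). In controls this call was kept in all 7 fits that each left out 1 library, and in Casp2-depleted mice in 4 of 7, being lost without P7 Casp2-depleted replicate 1, P14 Casp2-depleted replicate 3 or P14 Casp2-depleted replicate 4. P1 levels were 0, 11.97 and 10.3 CPM in controls and 111, 0, 4.06 and 99.0 CPM in Casp2-depleted mice, and the fall from P1 in the latter was at least 92.9-fold (adjusted p = 0.00712).

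Hnrnpc encodes the hnRNP C proteins, which bind uridine tracts (31.1 kb on chromosome 14, at 52310561 to 52341614, - strand). In Casp2-depleted libraries it went from 141, 49.9, 96.3 and 68.2 CPM at P7 to 0 in all 3 at P14, from 602 reads to 0, at least 144.8-fold (edgeR quasi-likelihood adjusted p = 0.000417). Controls went from 83.6, 173, 123 and 61.5 CPM to 0, 26.3 and 0 CPM, also without overlap, and were not called (-3.64, SE 1.48, adjusted p = 0.240). At P1 the level was 0, 38.7 and 7.94 CPM in controls and 26.6, 0.702, 10.8 and 54.5 CPM in Casp2-depleted mice, which was at least 39.2-fold above P14 in the latter (adjusted p = 0.00802). The left-out P14 Casp2-depleted replicate 1 held 112 reads, and with all 24 libraries the log2 fold change from P7 was -2.70 (adjusted p = 0.322) and that from P1 -0.74 (adjusted p = 0.959).

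Hnrnpl, whose product binds CA repeats (13.7 kb on chromosome 7, at 28507966 to 28521693, + strand), differed between P14 libraries by 1 library. In Casp2-depleted mice it went from 161, 61.8, 61.9 and 16.2 CPM at P7 to 0 in all 3 P14 libraries, from 535 reads to 0, at least 128.7-fold (edgeR quasi-likelihood adjusted p = 0.000252). The left-out P14 Casp2-depleted replicate 1 held 447 reads, or 310.2 CPM, more than any P7 library, and with all 24 libraries the log2 fold change was -0.47 (adjusted p = 0.966). Controls had 169, 85.0, 59.6 and 63.0 CPM at P7. At P14 they had 115 CPM in replicate 1, from 162 reads, and 0 in replicates 2 and 4 (-1.30, SE 1.25, adjusted p = 0.623). P1 levels were 8.43, 26.8 and 20.7 CPM in controls and 95.03, 0, 2.03 and 99.5 CPM in Casp2-depleted mice.

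Hnrnpu encodes scaffold attachment factor A, which binds chromatin and RNA (16.7 kb on chromosome 1, at 178148673 to 178165362, - strand). P7 control libraries had 131, 104, 81.2 and 39.0 CPM, and P14 control libraries had 0, 0 and 2.28 CPM, the last from 3 reads. The 571 reads at P7 were 73.7 times those at P14 per read on genes, with a 95% interval from counting alone of 25.1 to 358 (Clopper-Pearson), and the fitted difference was called (edgeR quasi-likelihood, adjusted p = 0.0146). Without P7 control replicate 1 or 2, or P14 control replicate 1 or 2, it was not called, nor with all 24 libraries (log2 fold change -1.21, adjusted p = 0.788), where the left-out P14 control replicate 3 adds 156 reads. Casp2-depleted libraries had 102, 135, 39.2 and 16.9 CPM at P7 and 11.99, 0 and 1.97 CPM at P14, with no overlap and no call (-3.96, SE 1.52, adjusted p = 0.171).

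**Figure D4:**
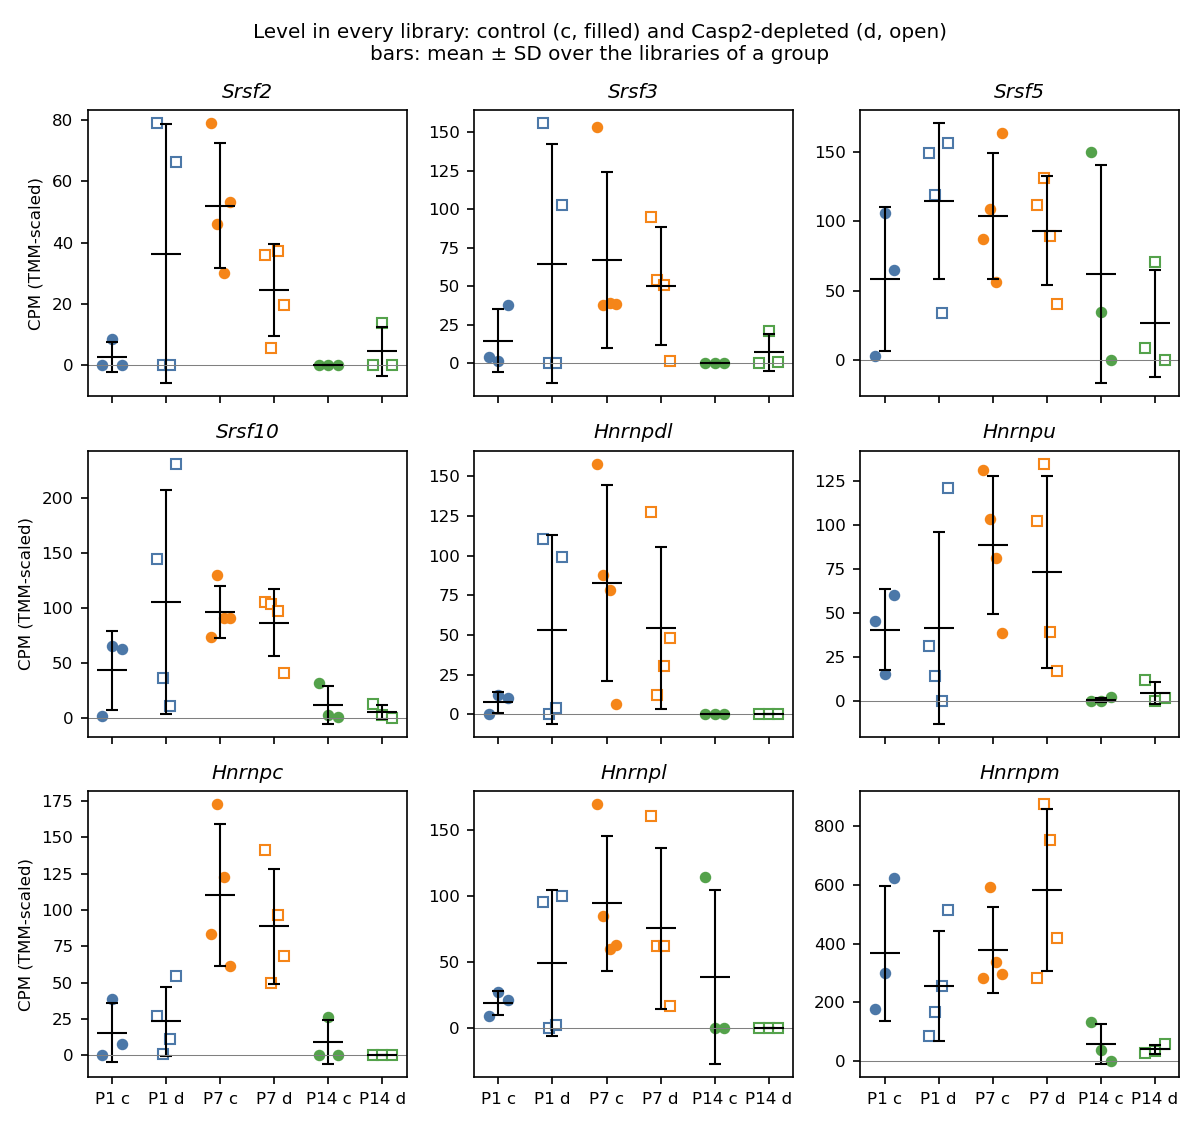
TMM-scaled CPM (y axis, from 0, a separate scale per gene) of the 9 members described by library, with control libraries filled (c) and Casp2-depleted libraries open (d), coloured by age, and bars for the mean ± SD of a group. Hnrnpdl lies at 0 in all 6 P14 libraries, Hnrnpl at 0 in 5 of them and 115 CPM in the other, and Srsf5 spans 0 to 151 CPM at P14 in controls.

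Hnrnpr and Hnrnpf, singled out after their values were seen, had reads in all 21 libraries. Hnrnpr, a relative of Syncrip, was at 130 to 173 CPM in P7 control and 71.4, 82.5 and 90.5 CPM in P14 control libraries, and at 96.3 to 191 CPM against 74.4, 124 and 170 CPM in Casp2-depleted libraries. It was not called (log2 fold change -0.89, SE 0.72, edgeR quasi-likelihood adjusted p = 0.525 in controls and -0.25, SE 0.71, 0.933 in Casp2-depleted mice). Hnrnpf, which binds G tracts, was at 1.57 to 30.1 CPM in P7 control and 6.07, 18.8 and 48.1 CPM in P14 control libraries (0.84, SE 1.71, adjusted p = 0.881). Hnrnpm and Hnrnpr together made up 23.6 to 37.7% of the members' reads in P7 control and 30.1, 54.5 and 88.7% in P14 control libraries. In Casp2-depleted libraries they made up 25.0 to 60.2% (median 53.8) at P7 and 41.7 to 65.0% (median 50.8) at P14.

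The hnRNP A/B and D genes as a family had 62.4 to 229 summed CPM in P7 control libraries and 0, 9.38 and 16.6 CPM in P14 control libraries, and 22.2 to 177 CPM against 0, 0 and 10.1 CPM in Casp2-depleted libraries. The hnRNP U family had 55.6 to 123 against 0, 3.36 and 7.79 CPM in controls. Genes of the hnRNP F/H family had 57.8 to 100 CPM at P7 and 8.97, 24.3 and 167 CPM at P14 in controls, and 33.3 to 70.1 against 26.8, 100 and 137 CPM in Casp2-depleted libraries, which overlapped.

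Long genes offer more sequence to a count over whole genes, introns included. Over the 30 members, gene length and the number of libraries with reads had a Spearman correlation of 0.40, and over 14707 protein-coding genes tested it was 0.64, as a description across genes of the same libraries. The members were short, with a median length of 13.3 kb against 31.7 kb.

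From P1 to P7, no member was called in either genotype by edgeR's quasi-likelihood test, by DESeq2 or by limma-voom. Calls higher at P7 covered 0.00982% of all genes in controls and 0.0196% in Casp2-depleted mice. In controls 25 of 28 members had a log2 fold change above 0, as did 55.0% of all genes, with a median of 1.31 against 0.21. Srsf7, Hnrnpdl and Hnrnpc had an unadjusted p below 0.05, as had 4.52% of all genes, and 7 members had one by limma-voom and 4 by DESeq2. The P1 and P7 control libraries did not overlap for 13 members, all higher at P7, as for 6.89% of all genes. Srsf7, for one, had 0 reads in P1 control libraries of the fit and 136, 22, 16 and 2 reads in P7 control libraries. The left-out P1 control replicate 1 held 211 Srsf7 reads, more than any P7 control library. In Casp2-depleted mice 13 of 28 members were above 0, as were 52.5% of all genes, and the median was -0.14, and Hnrnpm alone had an unadjusted p below 0.05, as 5.14% of all genes did. With the no-gene share as a covariate, the members' median in controls was -0.30, of the opposite sign. The difference between the genotypes in this change was called for no member (edgeR quasi-likelihood, DESeq2 and limma-voom). In edgeR 0% of all genes were called, and 1 member had an unadjusted p below 0.05 with a lower value, as had 3.85% of all genes.

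From P1 to P14, Hnrnpm alone was called in controls and 5 members were called in Casp2-depleted mice, namely Hnrnpm, Srsf10, Hnrnpdl, Hnrnpc and Hnrnpl, all lower. Srsf10 went from a mean of 106 ± 102 CPM (SD, n = 4) to 4.84 ± 6.32 CPM (SD, n = 3) (log2 fold change -4.43, SE 1.27, edgeR quasi-likelihood adjusted p = 0.0305). Hnrnpl went from 391 reads to 0, at least 85.7-fold (adjusted p = 0.000972), but with all 24 libraries, which add 447 P14 reads, its log2 fold change was 0.16 (adjusted p = 1). The medians over 28 members were -2.29 in controls, against -0.28 over all genes, and -4.69 in Casp2-depleted mice, against -0.41. The log2 fold change was below 0 for 19 members in controls (55.7% of all genes) and for 26 in Casp2-depleted mice (57.3%), and 10 and 17 members had an unadjusted p below 0.05 with a lower level (9.09% and 13.3%). The groups did not overlap for 7 members in controls (6.41% of all genes) and for 2 in Casp2-depleted mice (4.78%), since 2 of the 4 P1 Casp2-depleted libraries were also low. With the no-gene share as a covariate no member was called in either genotype. With the replicate block no member was called in controls (Hnrnpm, adjusted p = 0.452), and Hnrnpc and Hnrnpl alone in Casp2-depleted mice, where Srsf10, Hnrnpdl and Hnrnpm had adjusted p = 0.136, 0.0719 and 0.0763. Without P1 Casp2-depleted replicate 1, P1 Casp2-depleted replicate 4, P14 Casp2-depleted replicate 3 or P14 Casp2-depleted replicate 4, 3, 2, 1 and 2 members were called in Casp2-depleted mice, in that order. The 2 comparisons from P1 and P7 share their P14 libraries.

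Between genotypes, no member was called at P1 or P7 by edgeR's quasi-likelihood test, DESeq2 or limma-voom, where the first called 0% of all genes. At P1, Srsf7 alone had an unadjusted p below 0.05 in edgeR, as had 3.08% of all genes with a higher level, with 131 reads in Casp2-depleted and 0 in control libraries, and 2 members did in DESeq2 and 1 in limma-voom. The 131 Srsf7 reads were 85, 0, 0 and 46 in replicates 1 to 4, and the left-out P1 control replicate 1 held 211. The log2 difference was above 0 for 24 of 28 members, as for 52.4% of all genes, and its median was 1.00 against 0.08, and -0.46 with the no-gene share as a covariate. At P7, 0 members had an unadjusted p below 0.05 in edgeR and in DESeq2 and 1 did in limma-voom. It was below 0 for 22 of 28 members there, as for 51.2% of all genes. The P7 groups did not overlap for Hnrnph3 and Hnrnpk, both lower in Casp2-depleted libraries, as 0.943% of all genes were. Hnrnpk, a gene for a protein that binds C-rich RNA, had 103, 20, 72 and 46 reads in controls and 20, 2, 0 and 0 reads in Casp2-depleted libraries (log2 fold change -3.72, adjusted p = 1).

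At P14, Hnrnpl was called lower in Casp2-depleted mice, where 0.137% of all genes were, with 162 reads in controls and 0 in Casp2-depleted libraries, at least 60.2-fold (edgeR quasi-likelihood adjusted p = 0.0247). All 162 reads were in P14 control replicate 1, and the other 5 libraries had 0. Without that library both groups were at 0, and without P14 Casp2-depleted replicate 3 or 4 the call was lost too. In edgeR 4 members had an unadjusted p below 0.05 and a lower level in Casp2-depleted mice (6.52% of all genes), namely Hnrnpl, Hnrnpc, Hnrnpk and Hnrnph2, and 2 a higher one (6.31%), Srsf2 and Srsf3. These too rested on single libraries, with the other genotype at 0. All 35 Hnrnpc reads were in P14 control replicate 2, and all 19 Hnrnpk and 25 Hnrnph2 reads in P14 control replicate 1. P14 Casp2-depleted replicate 3 held all 22 Srsf2 reads and 33 of the 34 Srsf3 reads. The 2 P14 libraries left out of the fit held 597 Hnrnpl reads in control and 447 in Casp2-depleted mice, and with them no member was called. With the no-gene share as a covariate there was no call either, nor with the replicate block (adjusted p = 0.649). Hnrnpl was also the one member whose change from P1 to P14 was called as different between the genotypes (log2 difference -10.28, adjusted p = 0.0325, 0.0589% of all genes called lower). With 0 reads in the P14 Casp2-depleted libraries of the fit, that fitted value is no measure of size. That call was lost in 8 of 13 fits that each left out 1 library, P14 control replicate 1 among them, and with the replicate block (adjusted p = 0.769). In edgeR 5 members had an unadjusted p below 0.05 with a lower value (6.58% of all genes). The change from P7 to P14 was called as different for no member (0.0245% of all genes in either direction, and 1 call by DESeq2 and 0 by limma-voom), though Hnrnpl was called without P14 control replicate 2 or 4. In edgeR 2 members had an unadjusted p below 0.05 with a higher and 2 with a lower value, as had 5.02% and 4.73% of all genes. Hnrnpll, a paralogue of Hnrnpl, was the one member whose P14 groups did not overlap with higher values in Casp2-depleted mice, as 3.01% of all genes did, at 0, 0.750 and 12.7 CPM against 17.0, 23.97 and 32.1 CPM (2.41, adjusted p = 0.675).

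Among other genes of the splicing pathway, some fell from P7 to P14 and none was called higher in either genotype. Over all genes, 1.87% were called lower in controls and 2.82% in Casp2-depleted mice. Calls of single genes of these lists were not examined under the alternatives described at the end. Of 16 kinases, phosphatases and import factors of SR proteins, 3 fell in controls and 4 in Casp2-depleted mice, with the kinases Dyrk1a, Clk1 and Prpf4b called in both and Srpk2 in Casp2-depleted mice. Clk1 went from 416 ± 77.0 CPM (SD, n = 4) to 68.0 ± 58.4 CPM (SD, n = 3) in controls (log2 fold change -2.61, SE 0.67, edgeR quasi-likelihood adjusted p = 0.0107). Of 16 SR-related proteins outside the members, 9 fell in controls and 11 in Casp2-depleted mice. Among them Son, a scaffold of nuclear speckles, went from 2234 ± 694 CPM to 184 ± 137 CPM in controls (-3.60, SE 0.51, adjusted p = 4.41e-08), and Srrm1, a splicing coactivator with SR repeats, from 2412 ± 942 CPM to 308 ± 178 CPM (-2.97, SE 0.69, adjusted p = 0.0117).

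Of 26 tested genes of splice-site recognition and the core spliceosome, 2 fell in controls, Sf1 and Snrnp70, and 4 in Casp2-depleted mice. Snrnp70, the U1 70K protein gene, went from 252 ± 125 CPM (SD, n = 4) to 7.61 ± 10.1 CPM (SD, n = 3) in controls (log2 fold change -5.03, SE 0.95, edgeR quasi-likelihood adjusted p = 6.25e-05). Of 14 factors of nonsense-mediated decay, Upf3b fell in both genotypes and no other did. The medians of these 4 lists lay between -1.62 and -2.12 in controls and between -1.81 and -2.94 in Casp2-depleted mice.

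Levels of markers moved with age in the same libraries. The summed level of the 10 CM markers was 48484 to 68683 CPM in P7 and 17508 to 30091 CPM in P14 Casp2-depleted libraries, and from P7 to P14 edgeR called 5 of the 10 lower in controls and 6 of 10 in Casp2-depleted mice. Fibroblast markers, 7 of 7 with reads in controls at both ages, had 72.3 to 171 CPM at P7 and 53.2 to 244 CPM at P14 in controls, and endothelial markers, 5 of 6 with Egfl7 at 0, had 104 to 241 CPM and 50.04 to 1052 CPM. Macrophage markers had 42.0 to 84.4 CPM and 44.9 to 303 CPM, with Cd68 at 0 at both ages and Ptprc at P14. Mural markers had 219 to 325 CPM and 65.7 to 408 CPM, and erythroid markers 4.82 to 46.3 CPM and 0 to 26.9 CPM. In Casp2-depleted libraries endothelial markers had 109 to 314 CPM at P7 and 444 to 587 CPM at P14, higher without overlap, although Cdh5, Egfl7 and Kdr were at 0 at P14 and no endothelial marker was called. Fibroblast markers there had 97.1 to 176 and 94.2 to 317 CPM, macrophage markers 50.6 to 233 and 87.0 to 256 CPM, mural markers 271 to 427 and 119 to 243 CPM, and erythroid markers 18.3 to 67.4 and 0 to 110 CPM. Their part in the fall of the SR protein and hnRNP genes was not tested.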

How the data were processed

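The authors trimmed single-end QuantSeq reads with cutadapt 4.0, aligned them to GRCm39 with STAR 2.6.1e and counted them with HTSeq 2.0.3 over whole genes, introns included, and deposited raw read counts per gene for 24 libraries. Strand setting and molecular identifiers are not given in the sources used here, and PCR copies may count more than once. Groups came from the sample titles. Tallies of reads without a gene were kept out of the library totals. Replicate 1 of P1 control, 3 of P14 control and 1 of P14 Casp2-depleted stayed out of the fit, as in the study's methods. The study had set them aside for low quality. For the P14 libraries it named few detected genes, here 2049 in control and 4285 in Casp2-depleted, against at least 7628 in libraries of the fit. For the P1 library it proposed cytoplasmic contamination. Mitochondrially encoded genes made up 0.917% of the reads on genes there, against at most 0.260% in libraries of the fit.

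The 20368 genes that passed a minimum of 10 reads in all and detection in 3 libraries were fitted with edgeR 4.0.16 in R 4.3.3 (TMM factors, robust quasi-likelihood fit of 6 group means, 15 residual degrees of freedom). The study's own test was limma. Calls needed a Benjamini-Hochberg adjusted p below 0.05 over all genes and an absolute log2 fold change above 1. SE was derived from F and the log2 fold change. Members' CPM are scaled by TMM factors in the libraries of the fit. Sums, list totals and levels in left-out libraries are scaled by reads on genes. A count of 0 was taken as a limit of 3 reads over the group, which covers counting error only and not the spread between pools or PCR copies. The script was tested on simulated data with less spread than these libraries showed. Only well-read genes were changed in that test, so it did not cover members with few reads. Values by library are given for members called in any comparison and for the 6 highest per kb. DESeq2 1.42.0 and limma-voom (limma 3.58.1) and the other alternatives are described at the end. Gene coordinates come from GENCODE on GRCm39. A further list of RNA-binding protein genes is not reported here. The members and lists were chosen with earlier results of these data known.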

Additional observations from a re-analysis of the deposited data

Results flagged for a closer look

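In the sets of 4 libraries that make up a group, 2 of 30 checked held a library far from the other 3 by Dixon's criterion, which chance gives in about 1 in 20. Srsf3 stood at 153.2 CPM in P7 control replicate 1, where the next highest library of that group had 39.3 CPM. Srsf10 stood at 40.8 CPM in P7 Casp2-depleted replicate 4, where the next lowest had 97.0 CPM.

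The change of Hnrnpl from P1 to P14 differed between genotypes by -10.28 on the log2 scale (edgeR quasi-likelihood, Benjamini-Hochberg adjusted p = 0.0325). Its P14 control value comes from 162 reads in 1 library, and the P14 Casp2-depleted libraries of the fit had no Hnrnpl read. The fitted difference is therefore no measure of size.

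The 3 libraries left out of the fit held reads on members above the highest level of their group, listed here for the 9 members described by library. P1 control replicate 1 held 350 reads on Srsf2, 378 on Srsf3, 597 on Srsf5, 402 on Srsf10, 616 on Hnrnpdl, 658 on Hnrnpu, 866 on Hnrnpc and 292 on Hnrnpl, and it had 2818 CPM over the 30 genes, with 9.21% of its uniquely placed reads on no gene. P14 control replicate 3 held 286 reads on Srsf3, 156 on Hnrnpu and 597 on Hnrnpl, and 5 members were detected in it. P14 Casp2-depleted replicate 1 held 158 reads on Srsf2, 112 on Hnrnpc, 447 on Hnrnpl and 348 on Hnrnpm, and 7 members were detected. Srsf3 was at 0 in the P14 control libraries of the fit, and Hnrnpl in the P14 Casp2-depleted ones.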

How the results depend on the processing

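Members called from P7 to P14 in controls (4) became 8 with DESeq2, 10 with limma-voom, 1 with all 24 libraries, 0 with the no-gene share as a covariate, and 2 to 5 without each library in turn. The 5 in Casp2-depleted mice became 3 with filterByExpr, 1 with all 24 libraries, 1 with the share covariate and 3 to 5 without each library. The 1 from P1 to P14 in controls became 0 with limma-voom, filterByExpr, all 24 libraries, the share covariate and a fit of only the groups compared, and 0 to 1 without each library. The 5 in Casp2-depleted mice became 8 with DESeq2, 1 with limma-voom, 3 with filterByExpr, 1 with all 24 libraries, 0 with the share covariate, 1 in a fit of only the groups compared and 1 to 5 without each library. The 1 between genotypes at P14 became 2 with DESeq2, 0 with limma-voom, filterByExpr, all 24 libraries, the share covariate and only the groups compared, and 0 to 1 without each library. For the difference between genotypes, the 0 from P7 to P14 became 1 with DESeq2 and 0 to 1 without each library, and the 1 from P1 to P14 became 0 with median-of-ratios factors, limma-voom, no filter, filterByExpr, all 24 libraries, the share covariate, thinning to 891817 reads and only the groups compared, and 0 to 1 without each library. Calls over all genes from P7 to P14 in controls, 382, became 1031 with DESeq2, 1150 with limma-voom, 231 with filterByExpr, 35 with all 24 libraries and 38 with the share covariate, and in Casp2-depleted mice 577 became 1171 with DESeq2, 124 with all 24 libraries and 147 with the share covariate. The other 5 counts stayed at 0 under every alternative, and the adjusted p alone changed no count, nor did non-robust dispersions, chosen after seeing the data, by over 1.5 times. With all 24 libraries, 2 log2 fold changes turned sign, Srsf3 from P7 to P14 in controls to 0.031 and Hnrnpl from P1 to P14 in Casp2-depleted mice to 0.16. Of 309 refits of the 17 called values of single members, 197 kept the call, 110 kept the direction but not the call and 2 are those reversals. Median-of-ratios factors moved the median of all genes from P7 to P14 from -0.75 to -0.52 in controls and from -0.61 to -0.26 in Casp2-depleted mice, and the members' medians to -2.95 and -4.53. Where a fit left out a library or lost genes to a filter, fewer samples or genes entered; otherwise the cause was not tested.

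With the replicate block, members called became 0 from P1 to P14 in controls, 2 in Casp2-depleted mice, 0 between genotypes at P14 and 0 for the difference between genotypes from P1 to P14, and 3 and 4 from P7 to P14 in controls and Casp2-depleted mice. Of 9 pairs of libraries with the same number, 1 had deviations correlated above 0.1 (range -0.059 to 0.185). The deposited file names call the number a batch, and what it stands for is not stated in the sources used here.

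The biological coefficient of variation over all genes was 1.5005, with 3 or 4 pools per group.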
